A study of Mus musculus with 9 samples.

Results

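Ntsr2, Prlhr, Cidea, Prmt8 and Sowahb are 5 of the 37224 genes in a table of RNA sequencing counts from mouse cells, and they were selected on their counts, as genes strongly on in fibroblasts converted toward GABAergic interneurons and low in the groups compared with them. The converted cells are called iGABA. They were C57BL/6 fibroblasts taken at 14 days of reprogramming, started from primary fibroblasts that had not been passaged, and kept for 2 days in fibroblast medium before neuronal medium. MEF cells were primary C57BL/6 fibroblasts of E13.5 embryos (embryonic day) that had not been passaged. Their labels name both fibroblast medium and a neuronal inducing medium, and leave unclear which one preceded RNA extraction. GAD67 cells were C57BL/6 primary cortical interneurons of E18.5 embryos, positive for GAD67-GFP. Both of these neural groups went through a GFP sort, the fibroblasts did not, and the labels do not state which reporter marked the iGABA cells. Each group had 3 libraries.

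As background, the 5 genes have unrelated products. Ntsr2 encodes a G protein-coupled receptor of the peptide neurotensin and is known in adult brain mostly from astrocytes. Prlhr encodes the receptor of prolactin-releasing peptide, one of the RFamide peptides, and is known from the hypothalamus and brainstem. Cidea encodes a protein of lipid droplets, where it promotes droplet fusion, and is widely used as a marker of brown fat. Prmt8 encodes an arginine methyltransferase found mainly in brain and anchored to membranes by a fatty acid at its start. Sowahb encodes an ankyrin repeat protein of little known function. Of the 5, Prmt8 is thus the one best known as a neuronal gene.

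Levels are given as normalised CPM, in which each count is divided by the library total scaled by the trimmed mean of M values (TMM). Levels of different genes are compared only after division by exon length (CPM per kb). Library totals ran from 27501521 to 38975523 counts. All 10 neuron markers were higher and all 10 fibroblast markers lower in iGABA than in MEF cells by edgeR's quasi-likelihood test. Of all tested genes it called 42.1% higher and 39.7% lower there. Summed neuron markers stood at 1554 to 1610.4 CPM in iGABA libraries, against 9197 to 9774 in GAD67. Summed fibroblast markers stood at 725 to 1022 CPM in iGABA, against 128 to 136 in GAD67.

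The start site regions of the members are shown because these genes were on together in the same libraries. The table of RefSeq promoters (GRCm38.p6, the build of the counts' coordinates) held 4 of the 5 members. Each run below covers 250 bases before the start site and 50 from it, read 5′ to 3′ on the gene's strand. Capitals mark every match to the E-box CANNTG, the letters to which basic helix-loop-helix factors bind.
Ntsr2 (chr12:16653220-16653519, plus strand): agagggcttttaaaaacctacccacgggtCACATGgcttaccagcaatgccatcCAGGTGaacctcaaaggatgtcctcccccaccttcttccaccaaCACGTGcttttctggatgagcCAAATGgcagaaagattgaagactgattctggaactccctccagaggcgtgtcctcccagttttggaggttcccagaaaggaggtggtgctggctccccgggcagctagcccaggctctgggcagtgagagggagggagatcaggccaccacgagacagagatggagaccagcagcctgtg
Prlhr (chr19:60468255-60468554, minus strand): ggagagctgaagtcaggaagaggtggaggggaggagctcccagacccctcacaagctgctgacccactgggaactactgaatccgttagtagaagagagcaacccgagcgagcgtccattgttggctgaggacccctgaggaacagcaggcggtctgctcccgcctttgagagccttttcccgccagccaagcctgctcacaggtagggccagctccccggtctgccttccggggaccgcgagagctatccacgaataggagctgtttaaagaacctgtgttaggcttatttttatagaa
Prmt8 (chr6:127769106-127769405, minus strand): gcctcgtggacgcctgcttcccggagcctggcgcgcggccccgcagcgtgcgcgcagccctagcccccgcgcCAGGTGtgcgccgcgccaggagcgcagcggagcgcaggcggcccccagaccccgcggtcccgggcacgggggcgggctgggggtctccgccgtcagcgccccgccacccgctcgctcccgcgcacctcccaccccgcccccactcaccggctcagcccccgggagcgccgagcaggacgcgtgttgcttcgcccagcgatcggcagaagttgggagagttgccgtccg
Sowahb (chr5:93044973-93045272, minus strand): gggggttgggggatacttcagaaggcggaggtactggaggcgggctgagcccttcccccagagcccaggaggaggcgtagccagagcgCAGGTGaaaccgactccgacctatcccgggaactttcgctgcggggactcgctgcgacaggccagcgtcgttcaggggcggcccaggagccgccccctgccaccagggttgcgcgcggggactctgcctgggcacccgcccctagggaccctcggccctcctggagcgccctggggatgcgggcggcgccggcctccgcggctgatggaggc

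The 4 sequences were unlike each other in composition and in E-boxes. Ntsr2 held 4 E-boxes, with first bases from -221 to -131 counted from the start site. Prmt8 and Sowahb held 1 each, both as the letters CAGGTG, which Ntsr2 also held among its 4. Prlhr held none. Across 27025 promoters of the same length, 72.2% held at least 1 E-box and 6.52% held at least 4, so 1 match is common and 4 are not. No member held CAGCTG, a narrower E-box, which 16.1% of promoters held. TAATTA, letters to which homeodomain factors can bind, matched in no member and in 5.31% of promoters. AACAAT, part of the letters to which Sox factors bind, matched once in Prlhr on the reverse strand, at base -133, and in 10.9% of promoters. All motifs were searched on both strands, and a match is a description of these letters and not a bound site.

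CpG content divided the members as well. Prmt8 had 44 CG pairs and 79.0% G or C, above 98.6% of all promoters in G and C content. Sowahb had 27 CG pairs and 72.7% G or C. Prlhr had 12 and Ntsr2 only 5, with an observed-to-expected CpG ratio of 0.488 and 0.210 against a median of 0.389 over all promoters. The RefSeq start site matched the gene edge of the deposited table exactly for Ntsr2, Prlhr and Sowahb. For Prmt8 it lay 317 bases inside the edge, so the Prmt8 run may not be the start used by the counted transcripts. The RefSeq set held 2 promoters for Prmt8, and only the first listed was shown and searched.

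Ntsr2 (ENSMUSG00000020591, mm10 chromosome 12, 16653470 to 16660236, 4 exon blocks) had the highest level of the 5 in iGABA cells. The iGABA libraries stood at 122.7, 123.05 and 122.5 CPM (replicates 4, 5 and 6). MEF libraries held 0, 0 and 1 count, and GAD67 libraries held 10, 16 and 4 counts, or 0.255, 0.424 and 0.113 CPM. Every iGABA library was thus far above every other library, and the 3 iGABA values were close to each other, with a coefficient of variation of 0.218%. By summed counts iGABA stood 459-fold above GAD67 (95% interval 322 to 681, counting error only).

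Prlhr (ENSMUSG00000045052, chromosome 19, 60466733 to 60468304, 1 exon block) had the same shape. Its iGABA libraries stood at 86.4, 86.9 and 88.8 CPM. MEF libraries held 0, 1 and 1 count, and GAD67 libraries 5, 7 and 2 counts. The iGABA sum was 3962-fold above MEF (95% interval 1097 to 32720.0, counting error only) and 699.7-fold above GAD67 (417 to 1280.4). A receptor gene near 0 in both fibroblasts and cortical interneurons was thus well expressed in every converted library.

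Cidea (ENSMUSG00000024526, chromosome 18, 67343564 to 67367794, 5 exon blocks) stood at 67.6, 65.2 and 63.7 CPM in iGABA. MEF libraries held 2, 0 and 0 counts. GAD67 libraries held 0, 9 and 0 counts, so that all its GAD67 counts came from replicate 8. The iGABA sum was 2981-fold above MEF (95% interval 825 to 24615) and 819-fold above GAD67 (431 to 1791). Its exons share bases with the noncoding gene B430212C06Rik on the opposite strand, which itself stood at 1.08 ± 0.166 CPM in iGABA (SD, n = 3). The strand setting of the counting is not given in the sources used here, so reads on the shared bases cannot be told apart.

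Prmt8 (ENSMUSG00000030350, chromosome 6, 127689011 to 127769472, 10 exon blocks) went against the description of these genes as restricted to iGABA. Its iGABA libraries stood at 82.6, 81.3 and 82.7 CPM, and MEF libraries held 1, 0 and 3 counts. In GAD67 libraries it stood at 14.2, 17.6 and 8.13 CPM, from 556, 664 and 288 counts. GAD67 cells thus held 16.2% of the iGABA level, and the iGABA sum was 6.12-fold above GAD67 (95% interval 5.79 to 6.46, counting error only). Per kb, Prmt8 in GAD67 was above 50.2% of the tested genes. Its exons share bases with the antisense gene Gm42738, with the same limit on strand.

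Sowahb (ENSMUSG00000045314, chromosome 5, 93041123 to 93045022, 1 exon block) was the member with measurable counts in fibroblasts. Its iGABA libraries stood at 55.99, 62.2 and 58.3 CPM. MEF libraries stood at 0.366, 0.461 and 0.634 CPM, from 10, 14 and 21 counts. GAD67 libraries held 0, 3 and 3 counts. The iGABA sum was 119-fold above MEF (95% interval 88.7 to 163) and 1102-fold above GAD67 (506 to 3004).

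**Figure D1:**
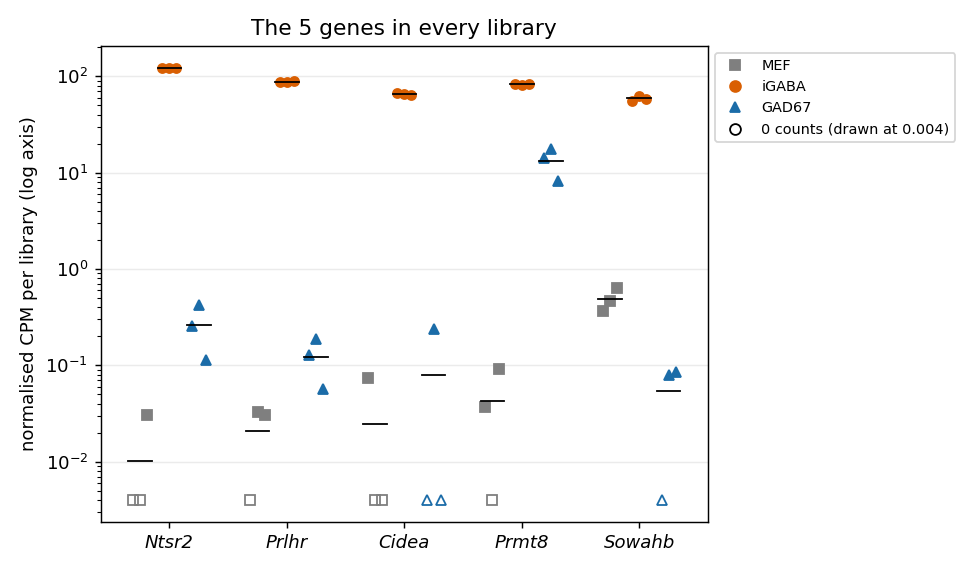
Normalised CPM of the 5 genes in each of the 9 libraries on a log axis, with a black bar at each group mean and open symbols for libraries at 0 counts. The iGABA libraries lie between 55.99 and 123.05 CPM for all 5 genes, and Prmt8 is the gene whose GAD67 libraries, at 8.13 to 17.6 CPM, lie well above 1.

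These differences chose the genes and are not tested. All 5 had every iGABA library above every MEF and GAD67 library, as did 20.7% of the 18085 tested genes. edgeR called 81.9% of tested genes in iGABA against MEF, 42.1% as higher, and 80.6% in iGABA against GAD67, 41.3% as higher. In iGABA, the fitted level was at least 16-fold above both other groups for 240 genes (1.33%), among them Ntsr2, Prlhr, Cidea and Sowahb. Ranked by the smaller of the 2 fitted log2 differences, Cidea was in place 6, Prlhr 8, Ntsr2 15 and Sowahb 50, while Prmt8 was in place 520. The rule set no numeric threshold, so there is no nearest gene outside it. In bulk samples, fewer cells of a type and less RNA per cell cannot be told apart, and the share of iGABA cells that carried these transcripts was not measured.

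Per kb of exon, the order in iGABA cells was Ntsr2 at 79.4 ± 0.173, Cidea at 56.3 ± 1.67, Prlhr at 55.6 ± 0.827, Prmt8 at 30.2 ± 0.294 and Sowahb at 15.1 ± 0.807 CPM per kb (SD, n = 3). Cidea and Prlhr overlapped in their library ranges and kept this order in 2 of 3 libraries. The other neighbours in the order did not overlap. Ntsr2 was above 97.4% of tested genes in iGABA cells and Sowahb above 74.7%. The 3 members that were highest per kb were thus among the more abundant transcripts of the converted cells.

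Whether the genes differed between the reference groups is a question the choice of members did not fix, although levels in both groups were known when they were chosen. In this comparison edgeR called 86.9% of tested genes, 43.1% higher and 43.8% lower, so a call in itself is common. The share of tested genes without overlap between these groups was not counted, so lack of overlap is a description only. Prmt8 and Sowahb had enough counts in GAD67 and in MEF libraries, respectively, to pass the low-count filter without iGABA. Prmt8, the brain methyltransferase, was higher in GAD67 than in MEF cells by a log2 difference of 8.13 (SE 0.513, edgeR adjusted p = 4.77e-09), and all 3 GAD67 libraries were above all MEF libraries. Sowahb was lower in GAD67 than in MEF cells by a log2 difference of -3.13 (SE 0.497, edgeR adjusted p = 5.56e-05), again without overlap. These 2 members thus went opposite ways.

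Ntsr2, Prlhr and Cidea passed the filter only through the iGABA libraries that chose them, and their levels in both reference groups rest on few counts. Ntsr2 had 30 counts in GAD67 against 1 in MEF, with no overlap between the groups (log2 difference 4.22, SE 0.821, edgeR adjusted p = 0.000326, and 3.52e-05 with no filter). Prlhr had 14 counts against 2 (log2 difference 2.33, SE 0.696, edgeR adjusted p = 0.00712, and 0.00793 with no filter), and without GAD67 replicate 8 it did not pass (edgeR adjusted p = 0.0524, range over alternatives 0.00225 to 0.0524). Both receptors were thus near 0 in interneurons as in fibroblasts when set beside their iGABA levels. Cidea had 9 counts, all in GAD67 replicate 8, against 2, and nothing is read from its fitted difference, which was 1.71 (SE 1.42, edgeR adjusted p = 0.271) and changed sign to -2.84 without that library.

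GAD67 replicate 8 held the highest level of Ntsr2, Prlhr, Cidea and Prmt8 in its group, and replicate 9 the lowest of Ntsr2, Prlhr and Prmt8. In the same libraries, summed endothelial markers were 13.4 CPM in replicate 8 and 47.98 in replicate 9, with 26.3 in replicate 7. Summed astrocyte markers were 196 CPM in replicate 8, 151 in replicate 9 and 182 in replicate 7. In the same order, summed neuron markers were 9197, 9774 and 9579 CPM, and summed fibroblast markers 128, 129 and 136. Summed fat cell markers were 18.7, 17.7 and 17.9 CPM, and summed microglia and macrophage markers 5.70, 6.92 and 6.56. The part of these markers in the members' levels was not tested.

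The pathway around Ntsr2 differed between converted cells and interneurons gene by gene. Neurotensin itself (Nts), the peptide that the receptors bind, had 1 count over all iGABA libraries against 4.499 ± 0.729 CPM in GAD67 (SD, n = 3). Ntsr1, the other G protein-coupled neurotensin receptor, stood at 0.975 ± 0.152 CPM in iGABA and at 5.27 ± 0.522 CPM in GAD67, and was lower in iGABA by a log2 difference of -2.43 (SE 0.190, edgeR adjusted p = 6.69e-08). Within the receptor pair the order was therefore opposite. Ntsr2 was 79.4 and Ntsr1 0.249 CPM per kb in iGABA, while Ntsr2 was 0.171 and Ntsr1 1.34 CPM per kb in GAD67. The library ranges of the pair did not overlap in either group.

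Of the 4 tested neurotensin genes other than Ntsr2, 2 were higher and 2 lower in iGABA than in MEF cells, and all 4 were lower than in GAD67. The shares of all tested genes were 42.1% higher and 39.7% lower against MEF, and 39.3% lower against GAD67. Nts and Sorl1, a sorting receptor of the sortilin family, were the 2 called lower against MEF, and scaled by library size alone neither passed (edgeR adjusted p = 0.0518 and 0.0805). The Nts difference rests on 7 counts over the MEF libraries, and leaving out MEF replicate 1 or 2 or iGABA replicate 4 or 6 also ended its call (edgeR adjusted p from 0.0669 to 0.0806). Sort1, the sorting receptor sortilin that also binds neurotensin, was abundant in all groups, at 149 ± 5.77 CPM in MEF, 182 ± 2.27 in iGABA and 211 ± 7.80 in GAD67. Its call against GAD67 was lost with library size alone (edgeR adjusted p = 0.755).

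Prlhr also stood in iGABA without its ligand. Prlh, the gene of prolactin-releasing peptide, had 0 counts in all iGABA and GAD67 libraries and 1 count in MEF, and was too low to be tested. Among the receptors of other RFamide peptides, Npffr2, a receptor of neuropeptide FF, stood at 1.36 ± 0.146 CPM in iGABA against 0.0795 ± 0.0699 in GAD67, a log2 difference of 4.03 (SE 0.464, edgeR adjusted p = 3.20e-06). Qrfpr, the receptor of the peptide QRFP, stood at 4.63 ± 1.70 CPM in iGABA against 0.205 ± 0.00722 in GAD67. Kiss1r, the kisspeptin receptor, was at 4.13 ± 0.164 CPM in iGABA and 4.16 ± 0.372 in GAD67 and did not pass in that comparison. Of the 4 tested RFamide genes other than Prlhr, 4 were higher in iGABA than in MEF cells and 2 higher than in GAD67. As a share of all tested genes, 42.1% were higher against MEF and 41.3% against GAD67. Kiss1 of the same list was not analysed here.

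**Figure D2:**
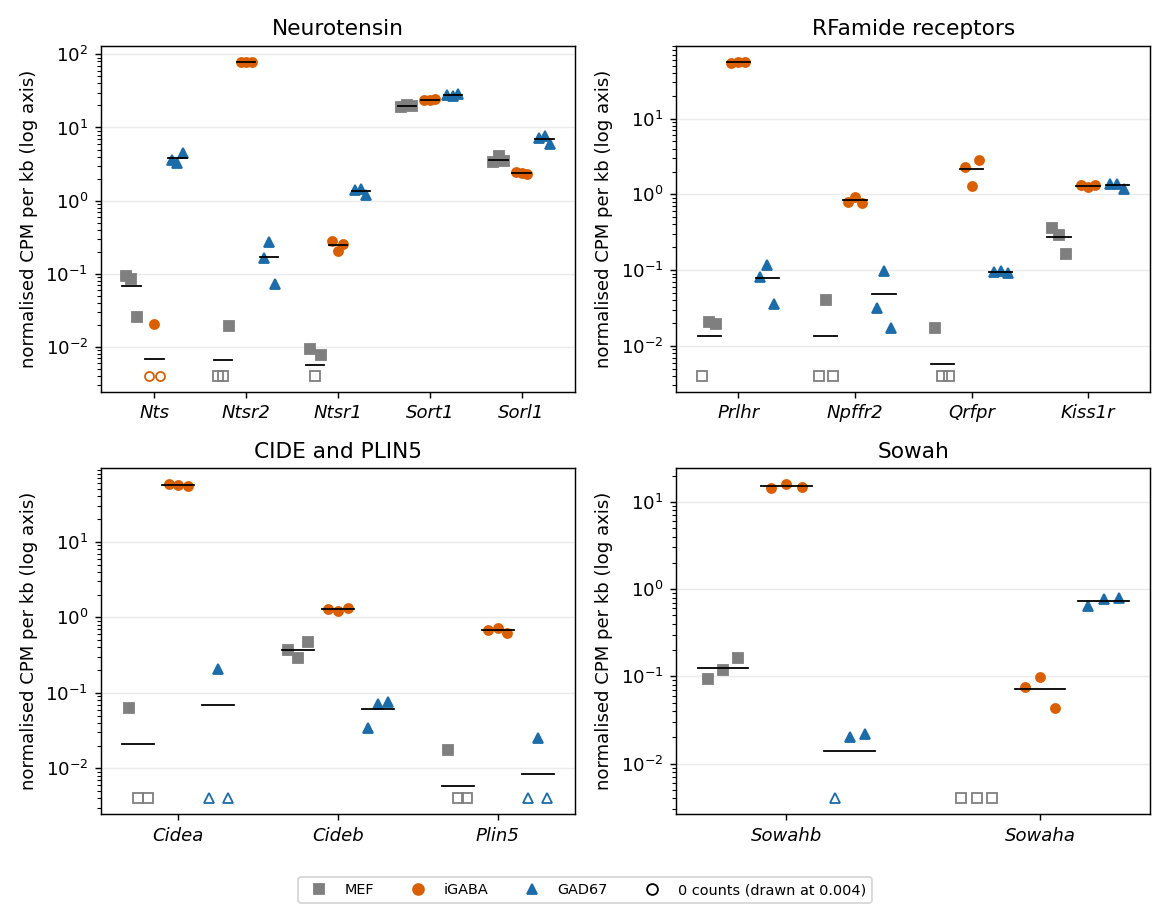
Normalised CPM per kb of exon for members and their relatives in each library, on log axes, with black bars at group means and open symbols at 0 counts. In iGABA libraries Ntsr2 lies above Ntsr1 and Sowahb above Sowaha, and in GAD67 libraries both orders are reversed.

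Ntsr2 and Prlhr were set against 56 genes of peptide receptors, themselves included, of which 36 were tested. Both members were chosen as strongly on in iGABA, so their places and shares here describe that choice. Per kb, Ntsr2 held place 1 and Prlhr place 2 of the 56 in iGABA cells. In GAD67 cells they held places 22 and 31, where Adcyap1r1, a receptor of the peptide PACAP, led at 20.9 ± 1.59 CPM per kb. Ntsr2 made up 38.1% to 40.1% of the summed CPM per kb of these genes in iGABA libraries and Prlhr 26.7% to 27.9%. In GAD67 libraries they made up 0.115% to 0.342% and 0.0565% to 0.147%. Npy2r, a neuropeptide Y receptor, followed in iGABA with 20.1% to 21.5%.

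The general list of neuropeptide receptors, which holds neither member, moved both ways. Of 30 tested, 16 were higher, 10 lower and 4 did not pass in iGABA against MEF, with a median log2 difference of 1.89 beside 0.05 over all tested genes. Against GAD67, 8 were higher, 16 lower and 6 did not pass, with a median of -1.32 beside 0.02. Among all tested genes 42.1% were higher and 39.7% lower against MEF, and 41.3% and 39.3% against GAD67. The somatostatin receptor Sstr5 stood at 22.4 ± 4.06 CPM in iGABA against 0.098 ± 0.0302 in GAD67. The somatostatin receptor Sstr2 stood at 1.56 ± 0.235 CPM against 30.6 ± 3.26. Receptors of a single peptide could thus differ in opposite directions, as Ntsr2 and Ntsr1 did.

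**Figure D3:**
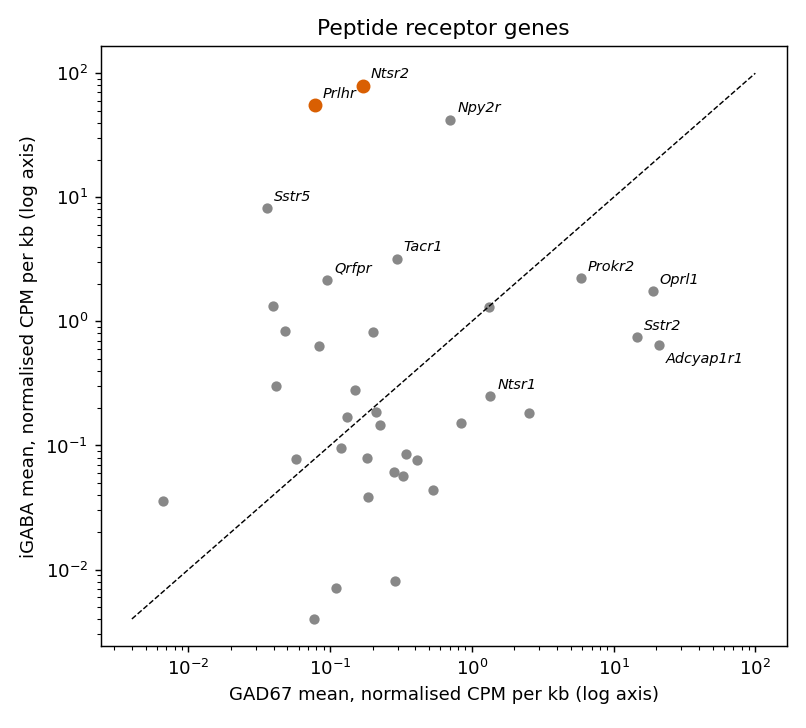
Mean normalised CPM per kb of 36 tested peptide receptor genes in iGABA (vertical) against GAD67 (horizontal), both on log axes, with equality dashed and a mean of 0 drawn at 0.004. Ntsr2 at 79.4 and Prlhr at 55.6 CPM per kb in iGABA lie above every other receptor shown, and Adcyap1r1 and Oprl1 lie at the right.

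Astrocyte markers are given beside Ntsr2 because of where that receptor is known. All 14 had counts in iGABA, and their sum was 577 to 586 CPM, against 877 to 990 in MEF and 151 to 196 in GAD67. Of the 11 tested, 2 were higher and 6 lower in iGABA than in MEF cells, beside 42.1% and 39.7% of all tested genes. The pair that rose was Aldoc, a glycolytic enzyme gene, at 174.7 ± 5.37 CPM, and Slc1a2, a glutamate transporter gene, at 8.33 ± 0.866 CPM in iGABA. Apoe, a lipid carrier, at 332.65 ± 0.854 CPM, and Gja1, a gap junction gene, at 47.2 ± 6.34 CPM, made up most of the rest of the sum, and both were higher than in GAD67. Most of the list went the other way there, with 3 of the 11 tested higher and 8 lower in iGABA than in GAD67. Among all tested genes 41.3% were higher and 39.3% lower in that comparison. Slc1a2 was 1 of the 8 lower, at 40.8 ± 4.76 CPM in GAD67. In iGABA, Gfap, the intermediate filament of astrocytes, stood at 0.292 ± 0.0627 CPM, Aqp4, their water channel, at 0.175 ± 0.0708, and Aldh1l1, a folate enzyme, at 0.582 ± 0.0695. The list thus held abundant and nearly silent genes in the same libraries, and its part in the Ntsr2 level was not tested.

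Around Cidea, genes of lipid droplets differed in both directions, with more of them higher in iGABA cells. Of 16 tested droplet and CIDE genes other than Cidea, 11 were higher, 4 lower and 1 did not pass against MEF, and 12 were higher, 3 lower and 1 did not pass against GAD67. Over all tested genes 42.1% were higher against MEF and 41.3% against GAD67. The list medians were 1.23 and 1.33 on the log2 scale, beside 0.05 and 0.02 over all tested genes. Scaled by library size alone, Dffa lost its lower call against MEF (edgeR adjusted p = 0.481) and Dgat1 its lower call against GAD67 (0.597), while Plin3, which did not pass against MEF, was called higher. Plin3 was called lower there by RLE scaling and by DESeq2, and Dffb lost its higher call without MEF replicate 2 (edgeR adjusted p = 0.0511). Pnpla2, the triglyceride lipase of droplets, stood at 87.5 ± 2.51 CPM in iGABA, against 29.5 ± 2.01 in MEF and 10.8 ± 0.105 in GAD67. Plin5, a droplet coat protein of tissues that burn fat, stood at 1.42 ± 0.108 CPM in iGABA, with 1 count in all MEF and 2 counts in all GAD67 libraries. Plin2, a coat protein found in most cells, was lower in iGABA than in MEF cells, at 31.0 ± 2.51 against 74.5 ± 4.78 CPM.

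The 2 relatives of Cidea were weak or silent. Cideb, known from liver, stood at 1.92 ± 0.0937 CPM in iGABA, 0.557 ± 0.134 in MEF and 0.0900 ± 0.0339 in GAD67. Cidec, known from white fat, had 0 counts in all 9 libraries. Per kb, Cidea in iGABA stood at 56.3 against 1.28 CPM per kb for Cideb.

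Markers of fat cells divided in the same libraries. Prdm16, a regulator of brown fat identity that also acts in neural progenitors, rose from 5.82 ± 0.412 in MEF to 199.7 ± 2.84 CPM in iGABA, by a log2 difference of 5.10 (SE 0.0883, edgeR adjusted p = 2.77e-14). Ppargc1a, a coactivator that drives mitochondrial genes, rose from 4.55 ± 0.867 to 41.1 ± 1.31 CPM, and Cox7a1, a respiratory chain subunit of muscle and brown fat, from 0.968 ± 0.384 to 17.8 ± 1.23 CPM. Cox8b, another such subunit, stood at 14.8 ± 3.79 CPM in iGABA, at 2 counts over the MEF libraries and at 0 counts in GAD67, at least 540.1-fold lower there. Against this, Pparg, the master regulator of fat cells, fell from 5.71 ± 0.954 to 0.0774 ± 0.0167 CPM, Fabp4, a fatty acid carrier, fell from 4.32 ± 0.936 to 0.0970 ± 0.0747, and Ucp1, the uncoupling protein that defines brown fat, had 0 counts in iGABA.

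Of 11 tested fat markers, 5 were higher, 5 lower and 1 did not pass in iGABA against MEF. Among all tested genes 42.1% were higher and 39.7% lower there, so the split of this list is near that of all genes. The call of Ebf2, 1 of the 5 lower, was lost with library size alone (edgeR adjusted p = 0.988) and without MEF replicate 3 or iGABA replicate 4 or 5 (0.0575 to 0.122). The call of Dio2, 1 of the 5 higher, was lost without MEF replicate 3 or iGABA replicate 6 (edgeR adjusted p = 0.0700 and 0.0526). Against GAD67, 8 were higher, 1 lower and 2 did not pass, where 41.3% of all tested genes were higher and 39.3% lower. The summed level was 283 to 292 CPM in iGABA, 270 to 292 in MEF and 17.7 to 18.7 in GAD67. The like sums of iGABA and MEF came from different genes. Most of the MEF sum was Lpl, at 236 ± 10.8 CPM there and 2.73 ± 1.37 in iGABA. Most of the iGABA sum was Prdm16, at 199.7 ± 2.84 CPM. In iGABA, 14 of the 15 markers had a count and Ucp1 had none, while Adipoq and Plin1, made by mature fat cells, were at 0.0593 ± 0.0353 and 0.0431 ± 0.0272 CPM. The part of these markers in the Cidea level was not tested.

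**Figure D4:**
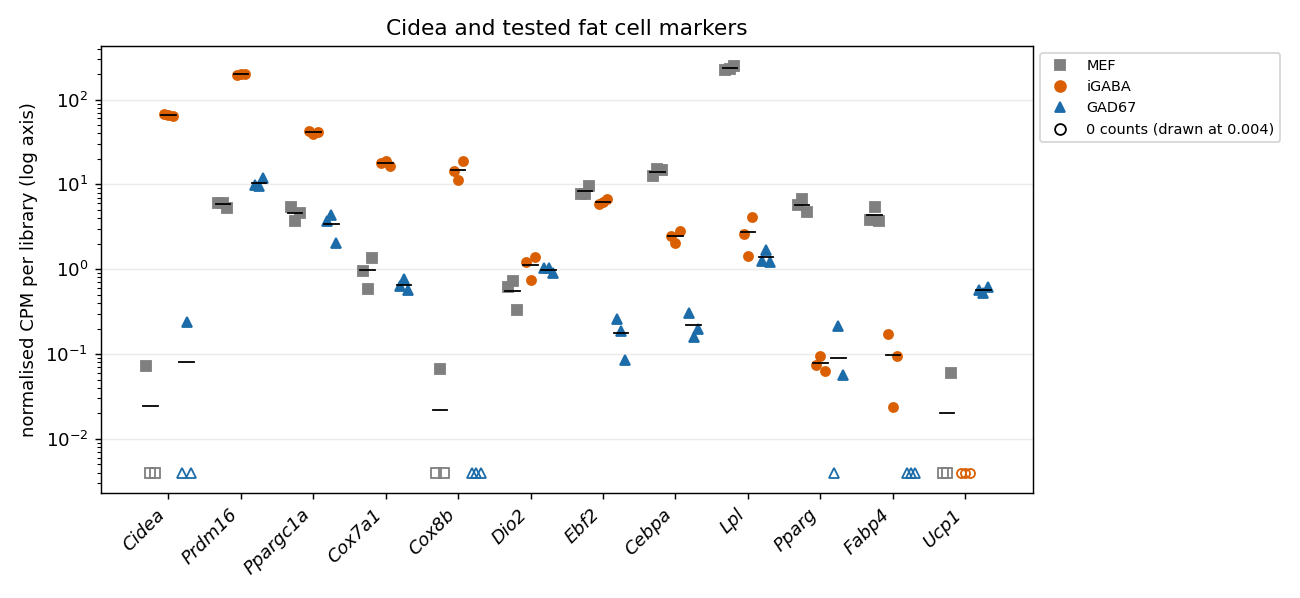
Normalised CPM of Cidea and 11 tested fat cell markers in each library on a log axis, with black bars at group means and open symbols at 0 counts. Cidea, Prdm16, Ppargc1a, Cox7a1 and Cox8b are highest in the 3 iGABA libraries, while Pparg and Fabp4 are highest in MEF and Ucp1 in GAD67.

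Prmt8 stood apart from the other arginine methyltransferases by the size of its range. Its mean went from 0.0424 CPM in MEF to 82.2 in iGABA. The 7 other methyltransferases tested, Prmt2, Prmt3, Carm1, Prmt5, Prmt6, Prmt7 and Prmt9, were present in all groups. Prmt5, which makes symmetric dimethylarginine, stood at 44.8 ± 0.910 CPM in MEF, 76.6 ± 1.33 in iGABA and 100.4 ± 4.11 in GAD67. Prmt2 stood at 35.8 ± 1.67, 62.1 ± 1.41 and 148 ± 19.0 CPM. Both thus rose from fibroblasts to interneurons with iGABA between, whereas Prmt8 was highest in iGABA.

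Of the 10 tested genes of that list other than Prmt8, 7 were higher and 3 lower in iGABA than in MEF cells. The shares over all tested genes were 42.1% and 39.7%. Scaled by library size alone none of the 3 was lower, and Btg1, a partner of Prmt1, was instead higher (log2 difference 0.15, edgeR adjusted p = 0.0175). Carm1 also lost its lower call without MEF replicate 3 or iGABA replicate 4 or 5. Against GAD67, 1 was higher, 8 were lower and 1 did not pass, where 41.3% of all tested genes were higher and 39.3% lower. Of the 8, Carm1 and Prmt7 did not pass with library size alone (edgeR adjusted p = 0.716 and 0.846, with a log2 difference of 0.02 for Prmt7). Both also lost the call without GAD67 replicate 7 or 8 or iGABA replicate 4, Carm1 without iGABA replicate 5 and Prmt7 without iGABA replicate 6. Prmt3, the 1 that did not pass, was called lower without GAD67 replicate 9. The 1 higher was Btg2, an antiproliferative partner, at 304 ± 11.7 CPM in iGABA against 14.7 CPM in GAD67. Prmt1, the closest relative of Prmt8, was not analysed here. How reads that match several genes were counted is not stated.

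Sowahb and its relative Sowaha had opposite preferences between the neural groups. Sowaha had 0 counts in MEF, 0.272, 0.358 and 0.156 CPM in iGABA and 2.32, 2.78 and 2.85 CPM in GAD67. iGABA was at least 8.21-fold above MEF, and GAD67 at least 80.1-fold above it. Between the neural groups Sowaha was lower in iGABA by a log2 difference of -3.28 (SE 0.285, edgeR adjusted p = 9.20e-07), where Sowahb was 1102-fold higher by summed counts. Sowahd was too low to be tested, and Sowahc was not analysed here.

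Of the genes next to the members, most within 100 kb were higher in iGABA than in GAD67. Within that distance lay 16 genes of the table, of which 12 were tested. Against GAD67, 10 of the 12 were higher, 1 lower and 1 did not pass, where 41.3% of all tested genes were higher and 39.3% lower. Against MEF, 7 were higher, 3 lower and 2 did not pass, where 42.1% of all tested genes were higher and 39.7% lower. Of the 12 genes, 6 lie near Cidea alone, so the counts lean on 1 region. Among these 6 is B430212C06Rik, which overlaps Cidea and was called higher in both comparisons. Its reads on the bases shared with Cidea cannot be told apart from those of Cidea, since the strand setting is not given. Shroom3, an actin regulator 75.8 kb from Sowahb, stood at 208 ± 5.81 CPM in iGABA against 13.98 ± 1.31 in MEF and 3.90 ± 0.409 in GAD67. Lpin1, a phosphatidate phosphatase of fat synthesis 63.7 kb from Ntsr2, stood at 288 ± 0.603 CPM against 50.5 ± 2.83 and 79.4 ± 5.34.

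The gene nearest to Ntsr2, Greb1, lies 10.4 kb away and was lower in iGABA than in MEF cells, at 1.75 ± 0.200 against 3.27 ± 0.408 CPM. Tubb6, a tubulin gene 22.9 kb from Cidea, fell from 124 ± 9.25 in MEF to 22.3 ± 4.98 CPM. Impa2, 24.4 kb away on the other side, was at 24.8 ± 0.690 and 23.4 ± 1.49 CPM and did not pass. Within 250 kb, 24 genes were tested, with 10 higher and 10 lower in iGABA than in MEF and 12 higher and 9 lower than in GAD67. Genes higher and lower were thus equal in number against MEF in the wider window, and nearer in number against GAD67 than within 100 kb.

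**Figure D5:**
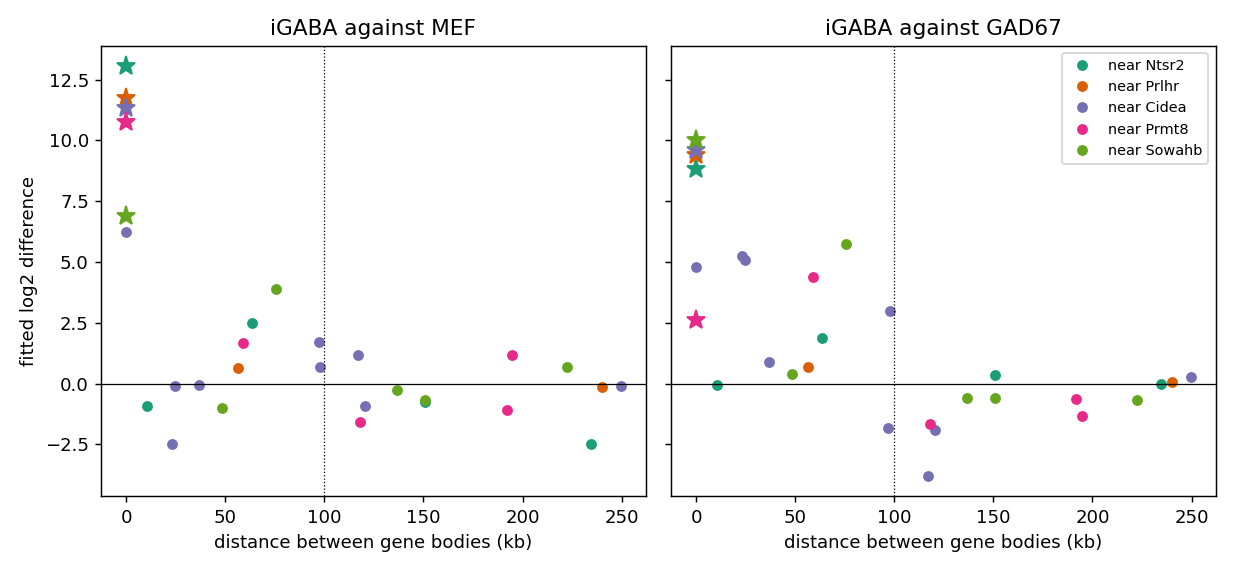
Fitted log2 differences of iGABA against MEF (left) and against GAD67 (right) for 24 tested genes within 250 kb of a member, by distance between gene bodies in kb, with stars for the members at 0 and a dotted line at 100 kb. Apart from B430212C06Rik, which overlaps Cidea, no neighbour on the left lies above 3.90, while the members lie between 6.88 and 13.04.

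Among the members Ntsr2, Prlhr and Cidea were the most alike, over 9 libraries that share their groups. Pearson r of log2 CPM was 0.996 for Ntsr2 and Prlhr, 0.986 for Prlhr and Cidea, and 0.980 for Ntsr2 and Cidea. Sowahb came next, with r of 0.945 to Cidea, 0.930 to Prlhr and 0.897 to Ntsr2. For Prmt8 r was 0.832 to Ntsr2, 0.780 to Prlhr and 0.730 to Cidea. It was 0.510 for Prmt8 and Sowahb, the pair with the least alike levels in MEF and GAD67. These are descriptions of 3 group levels more than of 9 separate points.

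The genes most like each member over the 9 libraries, by the same measure, were Isyna1, Slc5a11 and Rab26 for Ntsr2, Gjb1, Nxpe4 and Vgf for Prlhr, Plin5, Drd3 and Gm13698 for Cidea, Gipr, Adgrb2 and Scrn1 for Prmt8, and Myh7b, Rbm24 and Coq9 for Sowahb. Their r to the member ran from 0.996 to 0.999. They were not alike in size of change, since Isyna1 went from 38.4 to 91.8 CPM between MEF and iGABA and Gjb1, a gap junction gene, from 0.0101 to 39.0 CPM. Between 39 and 142 tested genes had r of at least 0.99 to a given member. With a prior count of 0.5 in place of 2, Cidea kept Plin5 and Drd3, and the other 4 members kept 0 of their 3. Plin5 encodes a droplet protein, as Cidea does. Outside iGABA, Cidea had 2 counts in MEF replicate 1 and 9 in GAD67 replicate 8, and Plin5 had 1 and 2 there. All their other MEF and GAD67 libraries held 0. Drd3 stood at means of 0.0122 and 0.00884 CPM in MEF and GAD67. The likeness of these genes to Cidea outside iGABA thus rests on where a few counts fell, and nothing is read from it.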

How the data were processed

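RNA of 9 samples in 3 groups was sequenced. Per the labels' protocols, total RNA was column-purified and strand-marked libraries were made by the dUTP method. The deposited table held raw read counts per gene, made by the authors; BWA 0.7.2, featureCounts, DESeq 1.10.1 and mm10 are named per the submitters' processing notes, and neither the annotation release nor the strand setting is given in the sources used here. Exon lengths came from the same table. Symbols from GENCODE vM21 matched 35449 genes (95.2%).

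Counts were analysed with edgeR 4.0.16 in R 4.3.3. The low-count filter (filterByExpr, minimum count 10, total 15) left 18085 genes. One quasi-likelihood fit over all 9 libraries with TMM scaling gave 3 comparisons, adjusted by Benjamini-Hochberg over all tested genes and called under 0.05. Standard errors are the log2 difference over the square root of the F statistic. Where a group had 0 counts, folds are bounds against 3 counts over the group. Count ratios carry exact 95% intervals (Clopper-Pearson on the split of counts), and these and the bounds cover counting error only, since PCR copies are not independent molecules. The fit was tested on simulated data for iGABA against MEF, where 98.5% of 200.0 changed genes among 16976 were recovered. Few genes were changed there, and they were drawn from genes above a count limit in iGABA. The simulation thus does not cover changes in most genes or levels near 0 in the data.

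Nothing in the labels ties replicates to different cultures or animals, so the p-values measure variation among these libraries that may be technical. No pair within a group agreed within counting noise (chi-square per gene at least 2.49). Named genes were the 5 members, genes of lists around them (neurotensin, RFamide, CIDE and lipid droplet, arginine methyltransferase, Sowah and neuropeptide receptor genes), markers of astrocytes, fat cells, neurons, fibroblasts, microglia and macrophages, and endothelial cells, genes within 100 kb, and the 3 genes with the highest Pearson r of log2 CPM (prior count 2) to each member. Summed microglia and macrophage markers were 11.1 to 13.2 CPM and summed endothelial markers 2.20 to 4.82 CPM in iGABA libraries. TAATTA and AACAAT were added as motifs after the data were seen. The members and lists were chosen with earlier results of these data known. Alternatives were library size alone, RLE scaling, no filter, DESeq2 1.42.0, fits of 2 groups and leaving out each library.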

Additional observations from a re-analysis of the deposited data

How the results depend on the processing

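The numbers of called genes stayed within 1.5 times of those given in all 84 recomputed values for the 3 comparisons. Scaling by library size alone moved the median log2 difference of all genes from 0.05 to 0.46 for iGABA against MEF, from 0.02 to 0.22 for iGABA against GAD67 and from 0.00160 to 0.224 for GAD67 against MEF. It split the calls of iGABA against MEF into 9941 higher and 5283 lower, in place of 7618 and 7188. Among the members' differences 188 of 207 recomputed values stayed within the replicate spread or on their side of the threshold. The sign changed for Cidea in GAD67 against MEF without GAD67 replicate 8 (-2.84, against 1.71; leaving out each library in turn gave -2.84 to 4.603, none past the threshold), and the Prlhr call there was lost without it. The other 17 that moved all kept their sign, and most involve groups with 0 to 4 counts: without MEF replicate 3 the fitted Ntsr2 difference of iGABA against MEF was 15.08 in place of 13.04, and without GAD67 replicate 8 that of Cidea in iGABA against GAD67 was 14.16 in place of 9.61. The cause was not tested. No paired analysis was possible because the groups share no replicate number in the labels. At this depth, levels of a few counts per library limit what can be said of Ntsr2, Prlhr, Cidea and Sowahb outside iGABA.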
